A study of Mus musculus with 12 samples.

Results

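The comparison was made between lymph nodes of tumour-bearing and tumour-free mice in which the nociceptive nerves supplying the node had been inhibited. It rests on the 6 libraries labelled NDE out of the 12 in the series, taken by their group label: 3 T NDE libraries and 3 NT NDE libraries, described across all 55487 annotated genes. The comparison itself was chosen with earlier results of these data known. T stands for mice inoculated in the tongue with B16F10, a mouse melanoma cell line, and NT for mice without that inoculation. NDE stands for inhibition of the nociceptive (pain-sensing) nerves that innervate the tumour-draining lymph node, so both groups compared here carry the nerve inhibition and differ in the tumour. The other 6 libraries, T NC and NT NC, come from mice with and without the tumour whose nerves were not inhibited, and they serve as the matched comparison. The labels call the 3 libraries of each group independent biological repetitions, and they do not say how the nerves were inhibited, whether 1 library is 1 mouse, or the strain, sex, age or time after inoculation. P-values therefore measure the spread between these libraries. The series title calls the nodes premetastatic.

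A draining lymph node filters lymph arriving from the tissue it serves. Lymph enters the subcapsular sinus and flows through medullary sinuses lined by lymphatic endothelial cells and by resident macrophages, which take up particles, antigen and dying cells. Beneath the sinuses, fibroblastic reticular cells build the scaffold of the T cell zone, and follicular dendritic cells hold antigen and attract B cells into follicles. Sensory nerve fibres reach the node along vessels and capsule and can release peptides such as calcitonin gene-related peptide and substance P, whose receptors include Calcrl with Ramp1 and Tacr1.

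The 6 libraries held between 18087371 and 21424983 counts assigned to genes, and 17301 genes had enough counts to be tested. Lymphocyte genes were abundant in all of them, as the label lymph node implies: the B cell receptor component Cd79b lay between 412 and 575 in normalised read count (CPM, counts scaled to library size with TMM factors) across the 6. T NDE replicate 3 stood apart from the others. Genes of the salivary gland list made up 4.25% of its counts (95% Wilson interval 4.24 to 4.26%, counting error only) and between 0.00161 and 0.00506% in the other 5. Bpifa2, a secreted protein of the parotid gland, was counted at 8.68, 6.6 and 12.6 CPM in NT NDE and at 15.8, 25.9 and 26330 CPM in T NDE. T NDE replicates 1 and 2 were also above the NT NDE range for this gene, by a small amount beside replicate 3. The summed level of 9 erythroid genes was also highest in that library, at 229 CPM against 21.2 to 123 CPM in the other 5, and that of 13 adipocyte genes was 239 CPM against 85.4 to 135 CPM. Salivary transcripts were present in 2 NT NC libraries as well, at 0.157 and 3.06%. Results are therefore given with all 6 libraries and, where T NDE replicate 3 changes them, again without it.

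With all libraries, 1 gene of 17301 (0.00578%) passed the test between T NDE and NT NDE, by edgeR's quasi-likelihood test with a Benjamini-Hochberg adjusted p under 0.05, and it fell. Every other gene had an adjusted p of 0.9998 or above. At an unadjusted p under 0.05 there were 641 genes (3.7%), 354 (2.05%) lower in T NDE and 287 (1.66%) higher. By the sign of the fold change alone 49.7% of genes were lower and 50.3% higher. Without T NDE replicate 3, 4 genes of 17645 passed (0.0227%), all of which fell in tumour-bearing mice: Siglec1, C6, Cd209b and Gm4617. With DESeq2 in place of edgeR the counts of passing genes were 17 with all libraries and 110 without T NDE replicate 3, and with limma-voom 0 and 1. The 5 genes that fell by DESeq2 with all libraries were Gm4617, Siglec1, Armcx4, Flrt3 and Lipg. In the edgeR fit without T NDE replicate 3, 1199 genes (6.8%) had an unadjusted p under 0.05, of which 824 (4.67%) were lower and 375 (2.13%) higher. By sign alone 49% were lower and 51% higher. The groups did not overlap, with T NDE lower, for 749 genes (4.33%) with all libraries and for 2194 genes (12.7%) without T NDE replicate 3. With T NDE higher, the corresponding counts were 709 (4.1%) and 1747 (10.1%). These shares are the background for the counts of gene lists given in the following paragraphs, and the median log2 fold change over all tested genes was 0.00 in both fits.

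Siglec1 encodes CD169, the sialic acid receptor that marks the macrophages of the subcapsular and medullary sinuses; the gene lies at chr2:131069220-131086765 on the minus strand of GRCm38. It was counted at 294, 284 and 306 CPM in NT NDE and at 158, 189 and 258 CPM in T NDE. All 3 libraries from tumour-bearing mice lay below all 3 from tumour-free mice, and T NDE replicate 3 was the nearest to them. The log2 fold change, here and elsewhere with its standard error (SE), was -0.55 ± 0.14 with all libraries (edgeR unadjusted p = 0.00224, adjusted p = 1). With that library left out, Siglec1 fell by 0.76 on the log2 scale (edgeR adjusted p = 0.00501).

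C6, a complement protein of the membrane attack complex (chr15:4727175-4814967, plus strand), had 30.9, 26 and 30.3 CPM in NT NDE and 10.9, 15.5 and 26.9 CPM in T NDE. T NDE replicate 3 lay within the NT NDE range and the other T NDE libraries below it. The log2 fold change was -0.71 ± 0.26 with all libraries (edgeR unadjusted p = 0.0199), and without that library the gene fell by 1.13 (adjusted p = 0.0218). Cd209b encodes SIGN-R1, a lectin of marginal zone and medullary macrophages that binds microbial polysaccharide (chr8:3917655-3926844, minus strand). Its level was 558, 547 and 571 CPM in NT NDE and 330.2, 371 and 635 CPM in T NDE, with T NDE replicate 3 above every NT NDE library and the other 2 below every one. Its log2 fold change was -0.33 ± 0.21 with all libraries (edgeR unadjusted p = 0.161), and it fell by 0.67 without T NDE replicate 3 (adjusted p = 0.0369).

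The wider list of sinus and tissue macrophage genes held 15 members, of which 14 were tested. With all libraries 13 of the 14 were lower in T NDE, the median log2 fold change was -0.26, 2 had groups that did not overlap (background 4.33%), and none passed the edgeR test. With T NDE replicate 3 left out all 14 were lower, the median was -0.57, 13 had groups that did not overlap (background 12.7%), and 12 had an unadjusted p under 0.05 (background 4.67%). T NDE replicate 3 was the highest T NDE library for all 14 genes and lay above every NT NDE library for 9 of them. Over all tested genes the corresponding shares were 37% and 28.3%. The median was -0.09 without T NDE replicate 1 and -0.18 without T NDE replicate 2. The summed level of the list was 1979, 1980 and 2030 CPM in NT NDE and 1276, 1421 and 2029 CPM in T NDE. In bulk tissue, fewer cells of a type and less RNA per cell cannot be told apart. The library rich in salivary transcripts was thus also the one T NDE library with a tumour-free level of macrophage RNA, and the part of the former in the latter was not tested.

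Receptors for uptake showed this order one by one. Marco, which binds bacteria and particles, had 451, 417 and 453 CPM in NT NDE and 289.8, 287 and 469 CPM in T NDE. Mertk, a receptor kinase for the uptake of dying cells, had 35.1, 38.3 and 37.4 CPM in NT NDE and 22.1, 25.4 and 44 CPM in T NDE. For both genes T NDE replicates 1 and 2 lay below the NT NDE range and replicate 3 above it. Timd4, the phosphatidylserine receptor of resident macrophages, followed the same order with 237, 238 and 231 CPM and then 158, 182 and 262 CPM. With all libraries the log2 fold changes were -0.34 ± 0.22 for Marco, -0.27 ± 0.21 for Mertk and -0.23 ± 0.15 for Timd4 (edgeR unadjusted p = 0.16, 0.214 and 0.168). Without T NDE replicate 3 they were -0.61 ± 0.18 for Marco, -0.63 ± 0.11 for Mertk and -0.46 ± 0.09 for Timd4, with edgeR adjusted p-values of 0.437, 0.0527 and 0.0883. C1qc, a chain of the complement recognition protein that macrophages secrete, was less dependent on that library. It had 158, 158 and 150.2 CPM in NT NDE and 101, 114 and 137 CPM in T NDE, all 3 below the NT NDE range (log2 fold change -0.41 ± 0.12 with all libraries, edgeR unadjusted p = 0.00641). C1qa, its partner chain, had 134, 135 and 136 CPM and 99.5, 105 and 136 CPM, with replicate 3 again at the tumour-free level.

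**Figure D1:**
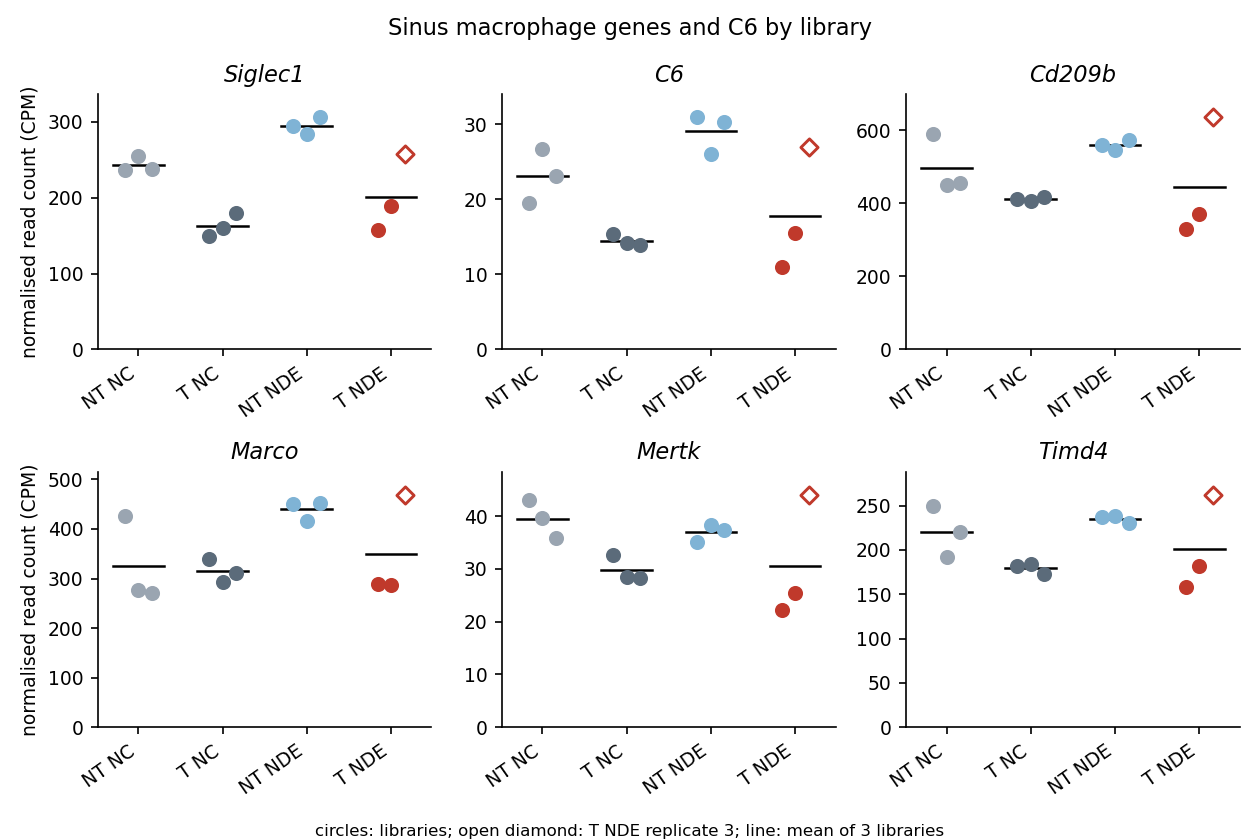
Normalised read count (CPM, y axis from 0) of Siglec1, C6, Cd209b, Marco, Mertk and Timd4 in each of the 12 libraries by group (x axis); circles are libraries, the open diamond is T NDE replicate 3 and the line is the mean of 3 libraries. T NDE replicates 1 and 2 lie below the NT NDE libraries in all 6 panels, while T NDE replicate 3 lies below them only for Siglec1.

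When the 2 NT NC libraries with salivary transcripts were left out as well, which changes the shared spread and the genes tested but none of the NDE libraries compared, edgeR called 28 genes in this comparison, 27 lower and 1 higher. The genes that fell included Siglec1, C6, Cd209b, Marco, Mertk, Timd4, Lrp1, Itsn1, Naaa, Nxph3, Cpe and Clca3a1, with adjusted p-values from 0.00168 to 0.0497 over the 28.

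Other genes among the lowest p-values without T NDE replicate 3 were Lrp1, a large endocytic receptor of macrophages and stroma, Itsn1, an endocytosis scaffold, and Naaa, a lysosomal amidase. Lrp1 had 151, 154 and 171 CPM in NT NDE and 89.3, 114 and 185 CPM in T NDE. Itsn1 had 66, 72.8 and 70.1 CPM and 48.2, 50.8 and 69.1 CPM. Naaa had 157, 152 and 156 CPM and 95.5, 119 and 156 CPM. In each of the 3 genes T NDE replicates 1 and 2 were below the tumour-free range and replicate 3 was not. Their log2 fold changes without it were -0.64, -0.49 and -0.53, each with an edgeR adjusted p of 0.0527. Nxph3, a secreted neurexophilin, was at low levels and did not overlap even with all libraries: 2.6, 2.95 and 3.31 CPM in NT NDE and 0.768, 0.811 and 2.37 CPM in T NDE (log2 fold change -1.15 ± 0.37, edgeR unadjusted p = 0.00777). Cpe, a peptide-processing carboxypeptidase, and Clca3a1, a surface protein of lymphatic endothelium, completed the 10 lowest. Cpe had 104, 113 and 115 CPM and 73.2, 78 and 103 CPM, all 3 T NDE libraries below the NT NDE range (log2 fold change -0.38 ± 0.12 with all libraries). Clca3a1 had 52.8, 61.5 and 61.2 CPM and 40.2, 41 and 63.6 CPM, with replicate 3 above the range.

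The single gene that fell with all libraries was Gm4617, a processed pseudogene at chr3:124385667-124385997 (plus strand). It was counted at 36.2, 37.9 and 44.5 CPM in NT NDE and 19, 20.6 and 20.5 CPM in T NDE, and the groups did not overlap. Gm4617 fell by 0.98 ± 0.12 (SE) on the log2 scale (edgeR adjusted p = 0.0133), and by 0.99 without T NDE replicate 3 (adjusted p = 0.0218). The call was lost with limma-voom (adjusted p = 0.115), with Bpifa2 as a covariate (0.0521), and when NT NDE replicate 3 (0.117), T NDE replicate 1 (0.163) or T NDE replicate 2 (0.173) was left out. Gm4617 is a copy of Ptma, which encodes the chromatin-associated acidic protein prothymosin alpha. Its annotated transcript of 331 bases aligned over its whole length to the Ptma transcript with 0 mismatches and a single gap of 3 bases (99.1% identity), so counts could be split between both. The stretch around the gap is shown because it holds the sole difference between the 2 transcripts in that alignment; capitals mark the 3 bases that Ptma has and Gm4617 lacks, and their place within the run of gag repeats is arbitrary (GENCODE M21 transcripts, 5′ to 3′).
Ptma: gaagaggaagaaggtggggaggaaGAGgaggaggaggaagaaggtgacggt
Gm4617: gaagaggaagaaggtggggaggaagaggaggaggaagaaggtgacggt
Ptma itself had 1045, 939.5 and 999.5 CPM in NT NDE and 947, 1017 and 977 CPM in T NDE, with overlapping groups (log2 fold change -0.02 ± 0.06). Gm4617 in the mice with intact nerves had 32.2, 26.9 and 35.8 CPM in NT NC and 30.6, 35 and 26.7 CPM in T NC, which overlapped.

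**Figure D2:**
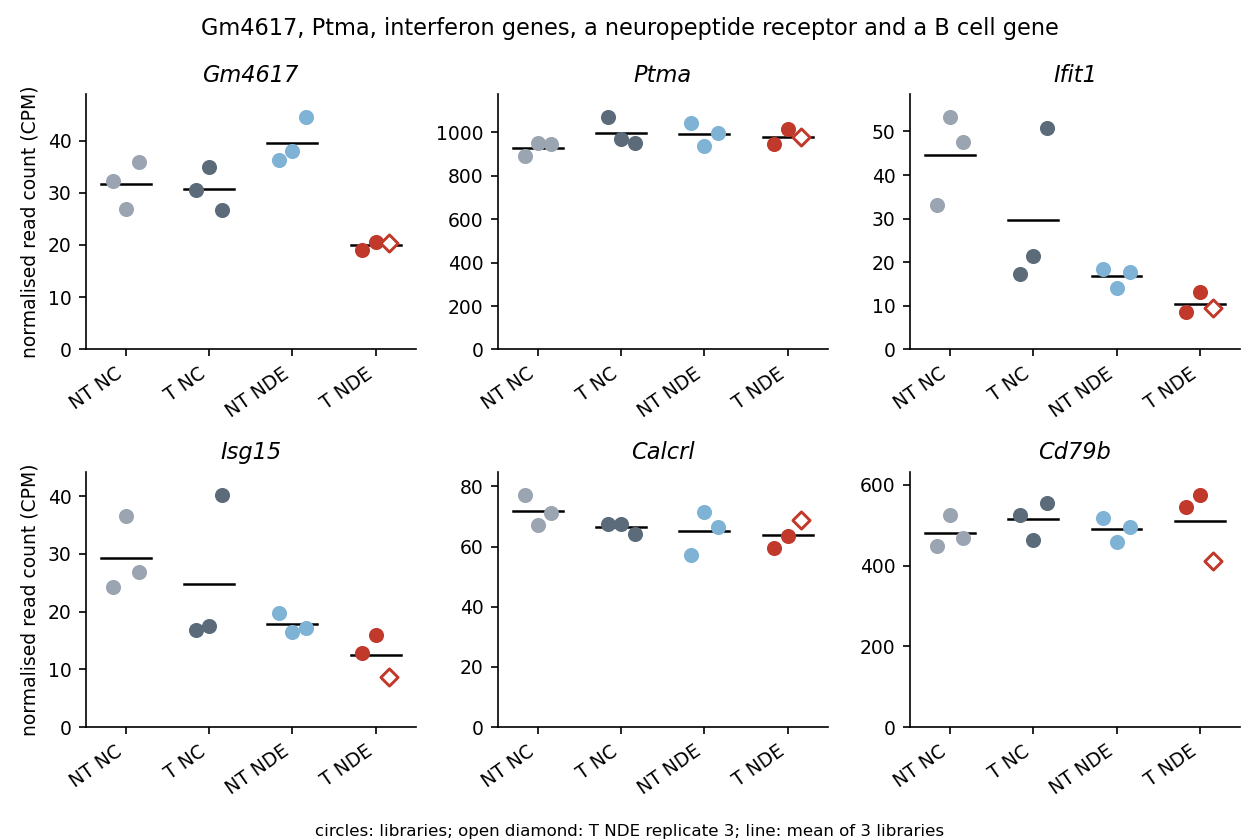
Normalised read count (CPM, y axis from 0) of Gm4617, its parent gene Ptma, the interferon response genes Ifit1 and Isg15, the neuropeptide receptor Calcrl and the B cell gene Cd79b in each of the 12 libraries by group (x axis); circles are libraries, the open diamond is T NDE replicate 3 and the line is the mean of 3 libraries. Gm4617 lies between 19.0 and 20.6 CPM in T NDE and between 36.2 and 44.5 CPM in NT NDE, while Ptma, Calcrl and Cd79b overlap between both.

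Complement genes other than C6 leaned the same way. Of 18 tested members 16 were lower in T NDE, with a median log2 fold change of -0.24, and 5 had groups that did not overlap (background 4.33%). Leaving out T NDE replicate 3, 17 were lower, the median was -0.36, and 15 had groups that did not overlap (background 12.7%). The median was -0.16 without T NDE replicate 1. T NDE replicate 3 was the highest T NDE library for 16 of the 18 (88.9%, against 37% of all tested genes). The list shares C1qc with the macrophage list, so the counts of both are not separate. C4b, the complement component cleaved by the C1 and lectin pathways, had 219.5, 272 and 232 CPM in NT NDE and 188, 208 and 208 CPM in T NDE. Cfp, properdin, which stabilises the alternative pathway convertase, had 130.1, 132 and 141 CPM and 94, 112 and 124 CPM. Both lay below the tumour-free range in all 3 T NDE libraries (edgeR unadjusted p = 0.0169 and 0.0243), and neither passed edgeR's test after adjustment.

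Stromal genes were also lower, and some of them in all 3 T NDE libraries. Of 12 follicular dendritic cell genes 9 were lower, 5 of them at an unadjusted p under 0.05 (background 2.05%) and 4 with groups that did not overlap (background 4.33%). The list's median was -0.23 with all libraries and -0.22 without T NDE replicate 3, where 10 were lower, and -0.14 without T NDE replicate 1. Cxcl13, a chemokine that attracts B cells to the follicle, had 295, 277 and 265 CPM in NT NDE and 168, 239 and 242 CPM in T NDE, without overlap (log2 fold change -0.37 ± 0.11, edgeR unadjusted p = 0.00717). Coch, cochlin, an extracellular protein of follicular dendritic cells, had 15.4, 20.7 and 16.2 CPM and 9.44, 14.4 and 14.2 CPM (log2 fold change -0.46 ± 0.17). Mfge8, which bridges apoptotic cells to phagocytes, had 685, 743 and 765 CPM and 566, 696 and 605 CPM, with T NDE replicate 2 inside the tumour-free range.

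Among 12 fibroblastic reticular cell genes 10 were lower, with a median of -0.15, and 3 had groups that did not overlap (background 4.33%). Leaving out T NDE replicate 3, 11 were lower, with a median of -0.24 and 5 without overlap (background 12.7%). The median was -0.06 without NT NDE replicate 2. Pdpn, podoplanin, which sets the contractility of this network and is shared with lymphatic endothelium, had 10.03, 10.7 and 10.4 CPM in NT NDE and 7.96, 6.14 and 7.2 CPM in T NDE (log2 fold change -0.55 ± 0.14, edgeR unadjusted p = 0.00131). Il33, an alarmin stored in stromal nuclei, had 87.6, 93.8 and 121 CPM and 64.7, 79.8 and 84.5 CPM (log2 fold change -0.40 ± 0.11). Bst1, the surface enzyme CD157 of reticular cells, had 61.4, 61.8 and 68 CPM and 49.5, 56 and 53.1 CPM. T NDE lay below NT NDE in every library for these 3 genes, and T NDE replicate 3 was not the nearest to the tumour-free range for Pdpn or Bst1. Flrt3, Shisa3 and Bmp2, given next, are not in the reticular cell list. Flrt3, an adhesion protein that binds latrophilins and Unc5 receptors, had the smallest p after Gm4617 among the named genes with all libraries: 25, 21.9 and 31.1 CPM in NT NDE and 13.5, 15.5 and 18.4 CPM in T NDE, without overlap (log2 fold change -0.72 ± 0.15, edgeR unadjusted p = 0.000263). Shisa3, an inhibitor of Wnt and FGF receptor maturation, had 54.9, 64.1 and 74.6 CPM and 44.2, 51.8 and 43.4 CPM. Bmp2, a bone morphogenetic protein, had 15.9, 15.8 and 13.9 CPM and 8.17, 8.67 and 11.4 CPM, with log2 fold changes of -0.47 and -0.69 for the 2 genes.

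Matrix and lymphatic genes depended more on T NDE replicate 3. Of 25 extracellular matrix genes 22 were lower in T NDE, with a median of -0.24 and 1 without overlap (background 4.33%). Without that library 23 were lower, the median was -0.33 and 16 did not overlap (background 12.7%), whereas it was -0.12 without either T NDE replicate 1 or NT NDE replicate 3. Bgn, the proteoglycan biglycan, was the 1 that did not overlap with all libraries, with 197, 204 and 216 CPM in NT NDE and 163, 176 and 182 CPM in T NDE. Tnc, tenascin C, a matrix protein of reticular fibres, had 92.6, 95.5 and 131 CPM and 75.5, 77.8 and 98.2 CPM, with replicate 3 inside the tumour-free range. Of 11 lymphatic endothelial genes 9 were lower with a median of -0.18, and 1 did not overlap (background 4.33%). Without T NDE replicate 3, 10 were lower with a median of -0.46, and 6 did not overlap (background 12.7%). The lymphatic median was -0.07 without T NDE replicate 1. Flt4, the receptor for the lymphatic growth factor VEGF-C, had 38.9, 48.1 and 43 CPM in NT NDE and 20.1, 31 and 43.9 CPM in T NDE, replicate 3 inside the tumour-free range (log2 fold change -0.45 ± 0.23 with and -0.76 ± 0.17 without it, edgeR unadjusted p = 0.0798 and 0.000942). Lipg, endothelial lipase, is not in the lymphatic list. Its groups did not overlap with all libraries, at 16, 16.7 and 22.8 CPM and 9.22, 8.52 and 12.3 CPM (log2 fold change -0.88 ± 0.19). Of 16 genes of blood endothelium and high endothelial venules 8 were lower and 8 higher, with a median of 0.00. Of the genes named from Cxcl13 to Lipg, DESeq2 called some without T NDE replicate 3, all lower. They were Cxcl13 (adjusted p = 0.0285), Il33 (0.0253), Flrt3 (0.000433), Bmp2 (0.0145), Tnc (0.0346), Flt4 (0.00177) and Lipg (0.000404). Pdpn, Coch, Mfge8, Bst1, Shisa3 and Bgn were not called. In that setting DESeq2 called 102 of all 17645 tested genes lower.

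**Figure D3:**
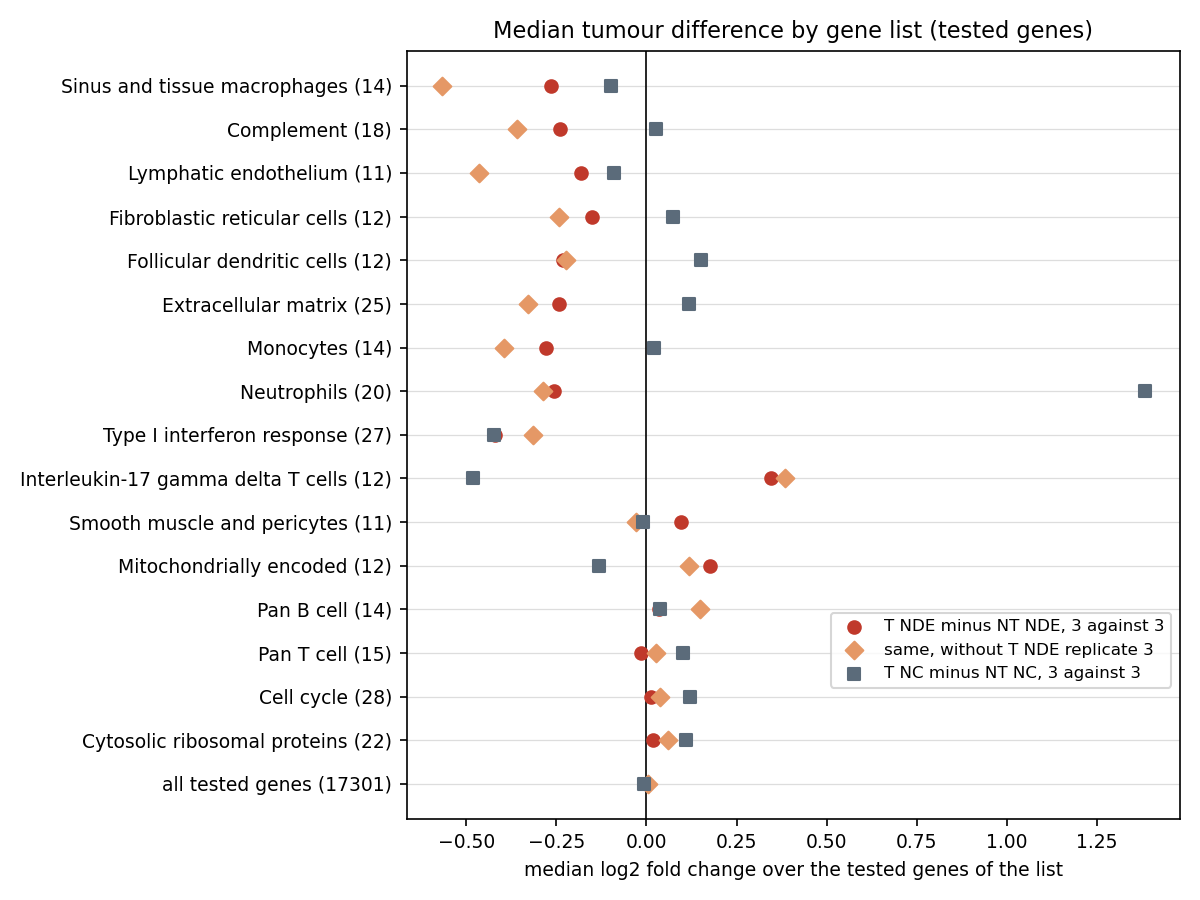
Median log2 fold change (x axis) over the tested genes of 16 lists and over all tested genes (y axis, number of tested genes in parentheses); red circles are T NDE minus NT NDE, orange diamonds the same without T NDE replicate 3 and grey squares T NC minus NT NC. The macrophage median moves from -0.26 to -0.57 when T NDE replicate 3 is left out, and the neutrophil and gamma delta T cell medians lie on opposite sides of 0 in the NDE and NC comparisons.

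Myeloid genes were lower as well. Of 14 monocyte genes 12 were lower in T NDE, with a median of -0.28 and 3 without overlap (background 4.33%). Without T NDE replicate 3 the median was -0.39 and 9 were without overlap (background 12.7%), and without T NDE replicate 1 the median was -0.17. Itgam, the integrin CD11b, had 20.5, 20.7 and 23.1 CPM in NT NDE and 16.2, 14.7 and 18.9 CPM in T NDE, without overlap (edgeR unadjusted p = 0.00339). Lyz2, lysozyme, had 1615, 1841 and 1894 CPM and 1435, 1517 and 1516 CPM, also without overlap. Csf1r, the receptor for the macrophage growth factor, had 287, 327 and 302 CPM and 203, 230 and 312 CPM, with replicate 3 inside the tumour-free range. Of 20 neutrophil genes 15 were lower, with a median of -0.26 (-0.29 without T NDE replicate 3, -0.14 without T NDE replicate 2). The groups did not overlap for 2 of the 20 (background 4.33%), Cxcr2 and Cd177. Cxcr2, the main chemokine receptor of neutrophils, had 30.9, 36.3 and 36.4 CPM and 27.1, 27.6 and 29.8 CPM. Cd177, a neutrophil surface protein, had 8.68, 8.26 and 6.99 CPM and 6.64, 4.97 and 4.84 CPM. The log2 fold changes were -0.29 ± 0.11 and -0.54 ± 0.30, and no gene of either list passed edgeR's test in the fits of all 4 groups with or without T NDE replicate 3. Without that library, DESeq2 called 3 of the 14 monocyte genes, all lower: Csf1r (adjusted p = 0.000431), Itgam (0.0346) and Fcgr1, the high-affinity IgG receptor (0.0433). Over all 17645 genes tested in that setting, DESeq2 called 102 lower. Also without that library, edgeR on the NDE libraries alone called Csf1r (0.00981), among 67 genes called lower of 16951 tested.

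Type I interferon response genes were lower in nearly all tested members, and here T NDE replicate 3 was not the exception. These genes are switched on by the transcription factor complex ISGF3, which binds the interferon-stimulated response element in their promoters. Of 27 tested genes 26 were lower in T NDE, the median log2 fold change was -0.42 (from -0.28 to -0.54 with any 1 of the 6 libraries left out, the former without NT NDE replicate 1), and 15 had groups that did not overlap (background 4.33%). In 24 of the 27, all 3 T NDE libraries lay below the NT NDE mean. Only Siglec1, which the list shares with the macrophages, had an unadjusted p under 0.05, and no member passed edgeR's test with all libraries. Siglec1 passed DESeq2's test with all libraries (adjusted p = 0.0351). Ifit1, which binds foreign RNA, had 18.3, 14.1 and 17.8 CPM in NT NDE and 8.5, 13.1 and 9.57 CPM in T NDE (log2 fold change -0.69 ± 0.42, edgeR unadjusted p = 0.134). Isg15, a ubiquitin-like modifier, had 19.7, 16.5 and 17.2 CPM and 12.8, 15.9 and 8.7 CPM (log2 fold change -0.51 ± 0.36, edgeR unadjusted p = 0.19). Oas1a, a sensor of double-stranded RNA, had 15.8, 13.6 and 17.6 CPM and 12.6, 11.6 and 10.3 CPM. Ifih1, the RNA sensor MDA5, had 33.9, 34.7 and 35.8 CPM and 29.95, 28.9 and 29.1 CPM. Each of these 4 genes was without overlap, and T NDE replicate 3 was the lowest of the 6 libraries for Isg15 and Oas1a. The 27 genes were measured in the same 6 libraries and belong to one response, so they are not separate replicates of it.

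The promoters of 3 of these genes are shown because nearly all members lay on the same side. A window from 250 bases before to 50 bases after the annotated start was in the RefSeq table (GRCm38.p6) for 18 of the 27 tested members. The letters GAAA, any 2 bases (NN) and GAAA again, the core of the response element, occurred on either strand in 11 of the 18 (61.1%) and in 465 of 11733 tested genes with a promoter in that table (3.96%). Capitals mark each match, and matches may overlap. The windows are Ifit1 at chr19:34640760-34640838 (plus strand, read 5′ to 3′, 2 matches on the opposite strand), Isg15 at chr4:156200850-156200921 (minus strand, 3 overlapping matches) and Bst2 at chr8:71537562-71537627 (minus strand, 2 overlapping matches).
Ifit1: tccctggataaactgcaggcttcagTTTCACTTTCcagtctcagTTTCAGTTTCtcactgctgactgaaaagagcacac
Isg15: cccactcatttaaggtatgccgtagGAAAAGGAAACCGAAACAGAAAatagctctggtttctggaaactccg
Bst2: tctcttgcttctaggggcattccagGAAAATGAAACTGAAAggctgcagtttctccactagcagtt
Bst2, the virion-tethering protein tetherin, had a small difference beside Ifit1 and Isg15: 99.4, 97 and 97.9 CPM in NT NDE and 88.8, 93.8 and 82.4 CPM in T NDE, without overlap (log2 fold change -0.15 ± 0.10). A match of letters is a description of the window and not a measured binding site.

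**Figure D4:**
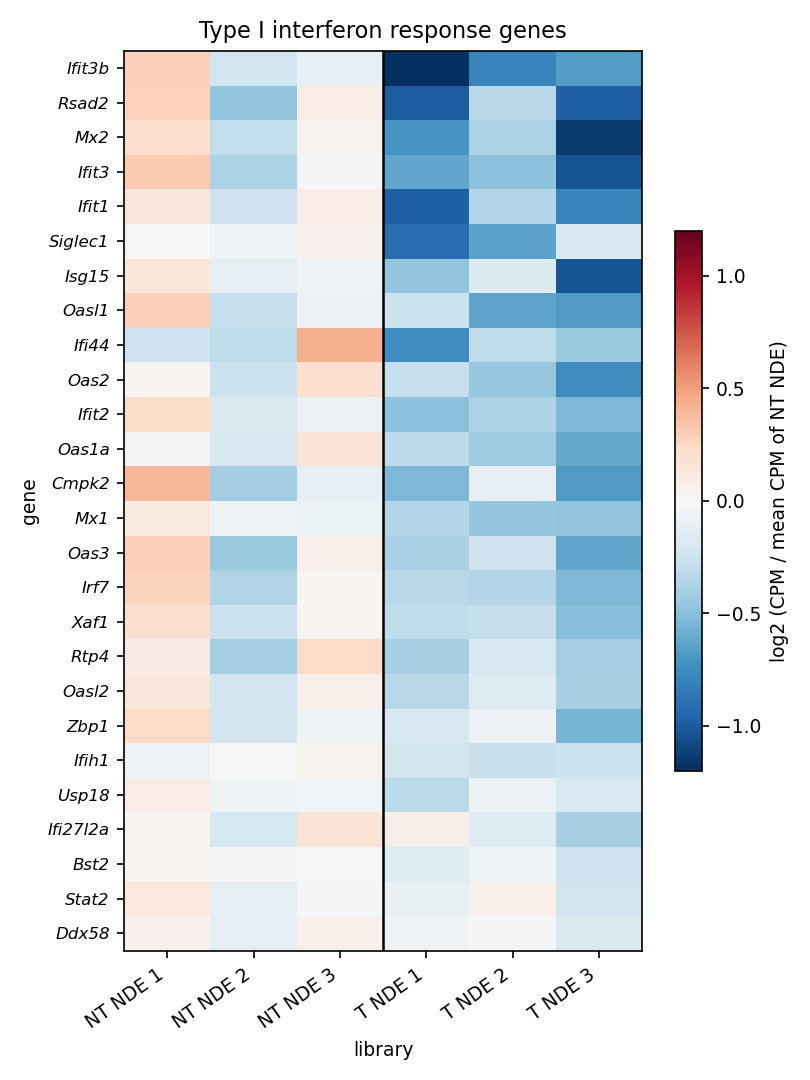
Log2 ratio of each library's CPM to the mean CPM of NT NDE (colour, blue lower and red higher) for 26 of the 27 tested type I interferon response genes (rows, ordered by their mean in T NDE) in the 6 NDE libraries (columns). In 24 of them all 3 T NDE libraries are below 0, T NDE replicate 3 included.

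Of 12 tested genes of interleukin-17-producing gamma delta T cells 9 were higher, with a median log2 fold change of 0.35 (0.39 without T NDE replicate 3, 0.07 without T NDE replicate 1, 0.55 without T NDE replicate 2, 0.18 without antigen receptor segments) and 1 without overlap (background 4.1%). Tcrg-V6, the gamma chain segment of a tissue-resident subset of these cells, had 0.779, 1.61 and 0.736 CPM in NT NDE and 3.73, 1.62 and 2.51 CPM in T NDE (log2 fold change 1.33 ± 0.39, edgeR unadjusted p = 0.00405). The groups did not overlap, although replicate 2 of both groups was nearly level. Cd163l1, a scavenger receptor family member of these T cells, had 31.6, 51.5 and 28.4 CPM and 129, 38.8 and 60.7 CPM, with T NDE replicate 2 inside the tumour-free range. Sox13, a transcription factor of the lineage, had 9.4, 12.3 and 12.2 CPM and 19, 12.1 and 16.7 CPM, and its groups overlapped. T NDE replicate 1 was the highest library for all 3 genes. None passed edgeR's or DESeq2's test.

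Of 11 smooth muscle and pericyte genes 7 were higher with all libraries and 4 without T NDE replicate 3, with medians of 0.09 and -0.03, and the median was 0.31 without T NDE replicate 2. Tagln, the actin-binding protein transgelin of smooth muscle, had 41.8, 46.5 and 50.5 CPM in NT NDE and 74.2, 59.8 and 71.7 CPM in T NDE, without overlap (log2 fold change 0.57 ± 0.13, edgeR unadjusted p = 0.000729). Myh11, smooth muscle myosin heavy chain, had 40.1, 42.2 and 43.4 CPM and 51.7, 45.1 and 64.3 CPM, also without overlap, and its log2 fold change moved from 0.36 ± 0.11 to 0.21 ± 0.09 without T NDE replicate 3. Acta2, smooth muscle actin, had 37.7, 49.9 and 52 CPM and 66.3, 48.9 and 81.7 CPM, with T NDE replicate 2 inside the tumour-free range. Mid1, a microtubule-associated ubiquitin ligase outside the smooth muscle list, was higher in every T NDE library at 5.87, 5.52 and 5.83 CPM and 12.6, 9.08 and 12.5 CPM (log2 fold change 0.99 ± 0.24, edgeR unadjusted p = 0.000938). With all libraries DESeq2 called Tagln (adjusted p = 0.0128) and Mid1 (0.049), and edgeR called neither. On the NDE libraries alone without T NDE replicate 3, edgeR called both (adjusted p = 0.0433 for Tagln and 0.0411 for Mid1). Tagap, a GTPase-activating protein of activated T cells, had 59.8, 61 and 57.9 CPM and 67.7, 69.4 and 70.5 CPM, a small difference with narrow spread (log2 fold change 0.22 ± 0.06). Sirt1, a deacetylase, had 51.2, 51.1 and 54 CPM and 59.4, 57.9 and 61.1 CPM, likewise without overlap (log2 fold change 0.19 ± 0.06). Of 12 mitochondrially encoded genes 11 were higher, with a median of 0.18 (0.12 without T NDE replicate 3) and 2 without overlap (background 4.1%). mt-Nd6, a subunit of respiratory complex I and 1 of those 2, had 13.9, 17.3 and 25.9 CPM and 38.2, 29.97 and 27.3 CPM.

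Further genes with the smallest p-values in either fit were mostly low in level or small in difference. Armcx4, an armadillo repeat protein, had 52.5, 60.5 and 74.4 CPM in NT NDE and 30.6, 38.4 and 47.8 CPM in T NDE, without overlap (log2 fold change -0.68 ± 0.17, edgeR unadjusted p = 0.00164). Kcnj2, a potassium channel, had 8, 5.26 and 9.72 CPM and 3.68, 4.72 and 4.59 CPM, and Gpr146, an orphan receptor, had 74.3, 79.7 and 80.3 CPM and 67.6, 68 and 69.4 CPM. Both were lower in every T NDE library (log2 fold changes -0.82 and -0.19). Among genes that were higher without overlap, Shc4, a signalling adaptor, had 0.364, 0.912 and 0.526 CPM and 2.09, 1.62 and 1.21 CPM, and Rnls, renalase, had 1.04, 0.858 and 0.526 CPM and 1.81, 1.98 and 1.35 CPM. Spock2, a matrix proteoglycan, had 7.38, 8.04 and 9.04 CPM and 13, 9.43 and 12.4 CPM. The log2 fold changes of these 3 were 1.44, 1.08 and 0.51, while Slf1 and D16Ertd472e, also without overlap, had log2 fold changes of 0.31 and 0.18. In the fit without T NDE replicate 3 the smallest p-values among higher genes also included Samd11, Rhoh, Cep85, Rpl39, Kansl1l and Miat, with log2 fold changes of 1.44, 0.23, 0.41, 0.21, 0.32 and 1.41. Rhoh, a GTPase of lymphocytes that signals at the antigen receptor, had 117, 121 and 119.7 CPM and 142, 137 and 109 CPM, with T NDE replicate 3 the lowest of the 6 libraries. None of these genes passed edgeR's test in either fit. DESeq2 called Armcx4 with all libraries (adjusted p = 0.0199), and Armcx4 (3.21e-05), Rhoh (0.0494) and Rpl39 (0.0273) without T NDE replicate 3.

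Lymphocyte genes differed little. Of 14 pan B cell genes 12 were higher, with a median log2 fold change of 0.03. T NDE replicate 3 was the highest T NDE library for 0 of the 14. Without it all 14 were higher, with a median of 0.15 and 5 without overlap (background 10.1%). Cd79b had 517, 459 and 495 CPM in NT NDE and 545, 575 and 412 CPM in T NDE. Of 15 pan T cell genes 10 were lower, with a median of -0.02, and of 28 cell cycle genes 17 were higher, with a median of 0.01. The median over 22 cytosolic ribosomal protein genes was 0.02. None of these lists had a member with groups that did not overlap when all libraries were used.

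Genes tied to nerves were examined because both groups had inhibited nerves. Among the receptors for sensory transmitters, Calcrl, the calcitonin gene-related peptide receptor, had 57.3, 71.5 and 66.5 CPM in NT NDE and 59.6, 63.7 and 68.7 CPM in T NDE (log2 fold change -0.02 ± 0.08). Its partner Ramp1 had 22.1, 21.4 and 17.7 CPM and 17.7, 18.9 and 19.7 CPM (log2 fold change -0.12 ± 0.13). Tacr1, the substance P receptor, had 4.05, 3.81 and 4.1 CPM and 3.62, 3.45 and 2.56 CPM, without overlap (log2 fold change -0.31 ± 0.20, edgeR unadjusted p = 0.143). None of the 11 tested genes of that list passed edgeR's test. The 14 tested Schwann cell and nerve fibre genes had a median of 0.06 with all libraries, with 8 higher and 6 lower. Without T NDE replicate 3 the median was -0.03, with 6 higher and 8 lower. The peptide genes Calca and Tac1 and the nociceptor channel gene Scn10a, whose messages are made in nerve cell bodies outside the node, had at most 1 count in any NDE library. Trpv1, the capsaicin receptor of nociceptors, had 9, 0 and 0 counts in NT NDE and 1, 2 and 5 in T NDE, too few to be tested. Of 19 tested neurotrophin and axon guidance genes 9 were higher and 10 lower, with a median of -0.00 with all libraries and -0.16 without T NDE replicate 3. With all libraries, 1 was higher and 3 were lower at an unadjusted p under 0.05 (background 1.66 and 2.05%), and 1 was higher and 2 were lower without overlap (background 4.1 and 4.33%). Those 2 were Sema3a and Robo1. Sema3a, a repulsive cue, had 16.4, 16.5 and 23.2 CPM and 11.9, 10.5 and 16.1 CPM, and Robo1, a Slit receptor, had 26.1, 30.7 and 27.8 CPM and 19.4, 23.8 and 24.8 CPM. Both were without overlap and lower in T NDE (log2 fold changes -0.55 ± 0.18 and -0.31 ± 0.11, edgeR unadjusted p = 0.00877 and 0.0136). Without T NDE replicate 3, DESeq2 called Sema3a (adjusted p = 0.0171) and did not call Robo1.

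Melanoma transcripts were at or near 0. Mlana, Tyrp1, Dct and Slc45a2, pigment cell genes, had 0 or 1 count in T NDE replicates 1 and 3 and between 1 and 5 counts in T NDE replicate 2, against 0 or 1 count in each NT NDE library. Oca2 had 0 counts in NT NDE and 0, 1 and 0 in T NDE, while Mc1r had 0, 1 and 2 counts in NT NDE and 0 in each T NDE library. The levels of these 6 genes were too low to be tested, and a count of 0 allows up to 3 counts. The 6 genes of the pigment cell list with enough counts, some of which other cells also express, had a median log2 fold change of 0.20 with all libraries and -0.13 without T NDE replicate 3.

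The same tumour contrast in mice with intact nerves compares the other 6 libraries, with the spread estimated over all 12. There, 0 of 17301 genes passed by edgeR, with 1350 (7.8%) at an unadjusted p under 0.05, of which 4.58% of all genes were higher and 3.23% lower. By sign alone 52% were lower and 48% higher in T NC, and the groups did not overlap for 7.23% of genes with T NC lower and 7.78% with T NC higher. Siglec1 was lower there too: 237, 256 and 239 CPM in NT NC and 149, 160.2 and 179.6 CPM in T NC, without overlap (log2 fold change -0.58 ± 0.14). The difference between the 2 fold changes was 0.03 ± 0.20 (edgeR unadjusted p = 0.877, adjusted p = 0.986), and -0.18 ± 0.12 without T NDE replicate 3 (edgeR unadjusted p = 0.132). C6 had 19.5, 26.6 and 23.1 CPM in NT NC and 15.3, 14.2 and 13.9 CPM in T NC, also lower without overlap, and its difference between settings was -0.03 ± 0.37 (edgeR unadjusted p = 0.931, adjusted p = 0.992). Without T NDE replicate 3 that difference was -0.46 ± 0.21 (edgeR unadjusted p = 0.0406, adjusted p = 0.705). Cd209b, with 589, 448 and 455 CPM and 411, 406 and 417 CPM, was lower without overlap as well (log2 fold change -0.27 ± 0.21, edgeR unadjusted p = 0.233). Its difference between settings was -0.05 ± 0.30 (edgeR unadjusted p = 0.8645). Without T NDE replicate 3 it was -0.40 ± 0.13 (edgeR unadjusted p = 0.00912, adjusted p = 0.6235).

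Several stromal and myeloid genes pointed in opposite directions in the 2 settings. In the main edgeR fit of all 12 libraries no difference of this kind passed. There, 0 of 17301 genes had an adjusted p under 0.05 for the interaction of tumour and nerve inhibition (smallest adjusted p = 0.321), and 1230 (7.11%) had an unadjusted p under 0.05. In other settings edgeR called Socs3 without the 3 salivary libraries (adjusted p = 0.000289), without NT NC replicate 1 (0.0423) and without NT NC replicate 2 (0.0432). It called Cd177 without NT NC replicate 1 (0.0493), Jun without T NC replicate 2 (0.0364) and Gm4617 without a count filter (0.00626). No gene was called when any 1 NDE library was left out. DESeq2 called 43 genes for the same interaction, including adjusted p-values of 3.08e-06 for Socs3, 0.000437 for Gm4617, 0.00178 for Cd177, 0.00284 for Cxcl13, 0.00518 for Pdpn, 0.00739 for Tcrg-V6 and 0.032 for Jun. Cxcl13 was 158, 175 and 189 CPM in NT NC and 236, 226 and 228 CPM in T NC, higher with the tumour where nerves were intact. Its interaction was -0.77 ± 0.16 on the log2 scale (edgeR unadjusted p = 0.000403, adjusted p = 0.501). Pdpn was 8.16, 7.92 and 8.28 CPM and 12.4, 10.5 and 9.53 CPM, with an interaction of -0.96 ± 0.19 (edgeR unadjusted p = 0.000186, adjusted p = 0.462). The level of Cxcl13 in NT NDE was itself above that in NT NC, and T NDE and T NC overlapped. Tcrg-V6 was 1.41, 1.75 and 1.16 CPM in NT NC and 0.45, 0.693 and 0.296 CPM in T NC, lower without overlap (interaction 2.88 ± 0.58, edgeR unadjusted p = 0.000178, adjusted p = 0.462). Cd177 was 6.64, 3.13 and 3.08 CPM and 7.57, 12.8 and 14 CPM, higher without overlap (interaction -1.97 ± 0.42, edgeR unadjusted p = 0.000423, adjusted p = 0.501). Socs3, a feedback inhibitor of cytokine signalling, had the smallest interaction p of all genes. Its level was 133, 121 and 127 CPM in NT NDE and 105, 108 and 88.1 CPM in T NDE, and 59.8, 84.9 and 77 CPM in NT NC and 121, 114 and 121 CPM in T NC, without overlap in either setting and with opposite direction (interaction -1.02 ± 0.15, edgeR unadjusted p = 1.86e-05, adjusted p = 0.321). Jun, an immediate early transcription factor, likewise had 43.7, 44.5 and 42.6 CPM and 36.4, 39.3 and 35.6 CPM with nerves inhibited, and 30.6, 32.6 and 33.3 CPM and 50.9, 34.9 and 45.1 CPM with nerves intact. Its interaction was -0.67 ± 0.15 (edgeR unadjusted p = 0.000434). For Gm4617 the interaction was -0.94 ± 0.17 (edgeR unadjusted p = 5.29e-05, adjusted p = 0.457).

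By list, the tumour went with higher levels of 19 of 20 neutrophil genes where nerves were intact (median 1.38), and with lower levels of 15 of the 20 where they were inhibited. The mean log2 CPM of the neutrophil list was 3.08, 2.38 and 2.09 in NT NC and 3.44, 3.75 and 4.12 in T NC. NT NC replicates 2 and 3, which hold salivary counts, were the lowest of all libraries. NT NC replicate 1 lay near the NT NDE libraries (3.04, 3.07 and 3.06). The part of the salivary libraries in this rise was not tested. With nerves intact, 9 of the 12 gamma delta T cell genes were lower (median -0.48), against 9 higher with nerves inhibited. Of 25 matrix genes 22 were higher (median 0.12), and the follicular dendritic cell list had 10 of 12 higher, with a median of 0.15. The interferon list was lower in both settings, with 25 of 27 genes and a median of -0.42 in mice with intact nerves. There 1 of the 27 was lower without overlap (background 7.23%), against 15 with nerves inhibited, and the summed level of the list was 1719, 2454 and 1824 CPM in NT NC and 1283, 1397 and 2210 CPM in T NC, so that T NC replicate 3 lay above 2 of the NT NC libraries. NT NC replicates 2 and 3, which hold 0.157 and 3.06% salivary counts, are part of these values.

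**Figure D5:**
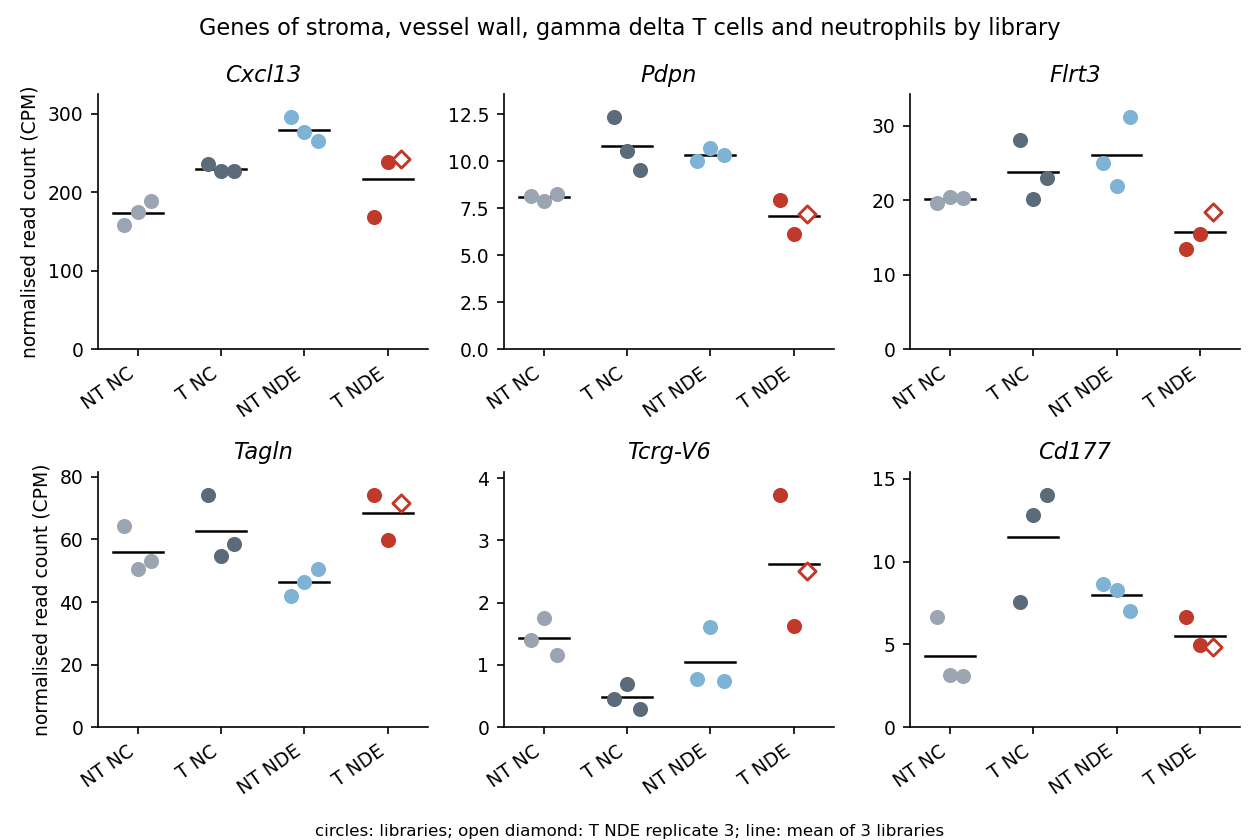
Normalised read count (CPM, y axis from 0) of Cxcl13, Pdpn, Flrt3, Tagln, Tcrg-V6 and Cd177 in each of the 12 libraries by group (x axis); circles are libraries, the open diamond is T NDE replicate 3 and the line is the mean of 3 libraries. In the NDE mice Cxcl13, Pdpn, Flrt3 and Cd177 are lower and Tagln and Tcrg-V6 higher with the tumour, without overlap in any of the 6 panels. None of the 6 genes passed edgeR's test of this difference in the fit of all 12 libraries. On the NDE libraries alone without T NDE replicate 3, edgeR called Flrt3 (adjusted p = 0.0262) and Tagln (0.0433).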

How the data were processed

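RNA-seq of 12 lymph node libraries, 3 in each of 4 groups, was deposited as 1 table of whole-number counts per gene that the authors had not normalised. Per the labels' protocols, total RNA was taken with Trizol and mRNA libraries were prepared by Illumina's standard procedure. The submitters' processing notes name HISAT2 2.0 and the mm10 build. For the counter, annotation and strand setting, nothing is given in the sources used here, so how reads of gene copies, overlapping genes or antisense partners were assigned is unknown.

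Counts were fitted in R 4.3.3 with edgeR 4.0.16: TMM factors, filterByExpr (minimum count 10, total 15), 1 mean per group over all 12 libraries, robust quasi-likelihood F test, two-sided, Benjamini-Hochberg adjustment over all tested genes, threshold 0.05. CPM are TMM-normalised and are not scaled to gene length, so levels of different genes are not compared. An exact permutation test of 3 against 3 libraries cannot go below p = 0.1. The script was tested on simulated counts. Rows with no gene symbol held up to 0.0548% of a library's counts. Alternatives used limma 3.58.1 (voom) and DESeq2 1.42.0, other filters and scalings, and libraries left out. Positions are from GENCODE M21 on GRCm38 (mm10), and promoters are RefSeq's.

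Named were all passing genes and the 10 smallest p in each direction with and without T NDE replicate 3 (at least 1 CPM on average, without antigen receptor segments, unnamed or predicted genes and, with all libraries, salivary genes). The rule also took the 3 members of each described list with the smallest p, and the check genes Bpifa2, the melanocyte list, Calcrl, Ramp1 and Tacr1; a few genes that the rule or lists include are not reported here. Other genes, such as Marco, Timd4, Flt4, Ifit1, Bst2, Socs3, Jun and Cd79b, were chosen after their values were seen. The comparison, members and lists were chosen with earlier results of these data known.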

Additional observations from a re-analysis of the deposited data

How the results depend on the processing

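Direction held for most genes named, and counts of passing genes did not hold. In the main edgeR fit only Gm4617 was called, so for any other named gene a call could be gained but not lost. Gm4617 lost its call with limma-voom and with Bpifa2 as a covariate. It also lost it without NT NDE replicate 3, T NDE replicate 1 or T NDE replicate 2. Other named genes gained a call, such as Siglec1 with DESeq2, and Siglec1, C6 and Cd209b with edgeR without T NDE replicate 3. Gm4617 was the 1 edgeR call with DESeq2 size factors, without a count filter, with a stricter filter, without antigen receptor genes and in the 6 NDE libraries alone. DESeq2 called 17 genes (12 higher, mostly salivary, and 5 lower), limma-voom 0, the fit with Bpifa2 as a covariate 0, and the fit without the 3 salivary libraries 28. Leaving out 1 NDE library gave 0 to 4 calls. Alternatives chosen after seeing the data left out T NDE replicate 3 and gave 110 calls with DESeq2, 1 with limma-voom, 4 with DESeq2 size factors, 4 with the stricter filter, 71 in the NDE libraries alone and 3 with the replicate block. The interaction had 0 calls, 43 with DESeq2 (among them Socs3, Cxcl13, Pdpn and salivary genes), 1 without a filter, 3 without the 3 salivary libraries and 0 to 2 with 1 library left out; the cause of these differences was not tested.

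Same-numbered libraries deviated together by correlations of -0.0165, 0.0378 and 0.0631, so the numbers were not taken to pair them. With the replicate number as a block, 3 genes passed (Gm4617, Armcx4 and Gm5154) and 1 for the interaction.

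Signs turned for values near 0 and for values set by T NDE replicate 3. With 1 library left out, Calcrl ran from -0.11 to 0.0503, Cd79b from -0.0367 to 0.195 and Ptma from -0.0586 to 0.0159 (log2 fold change). With Bpifa2 as a covariate, Bpifa2 itself was -0.00892 (9.88 with all libraries) and Gm5154 -0.40 (8.94), and the medians were -0.39 for macrophage, -0.34 for lymphatic, -0.15 for neutrophil and 0.09 for mitochondrially encoded genes. Without T NDE replicate 3 the adipocyte median went from 0.89 to -0.49 and the erythroid from 0.84 to -0.81. Depth allowed 17301 of 55487 genes to be tested, and 3 libraries per group limit the smallest difference that can pass.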
